A study of Mus musculus with 9 samples.

Results

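The BCL2 family genes described here are Bcl2, Bcl2l1, Mcl1, Bax, Bak1, Bad, Bbc3, Pmaip1, Bcl2l11 and Bid. They were found by gene symbol and make up 10 of the 22322 genes in the study's expression table. The study used mouse cells labelled as retinal ganglion cells (RGCs), the neurons whose axons form the optic nerve. Most defining markers of these neurons were low or absent, as given below. Wild-type RGC cultures in 3 groups were sequenced, with 3 libraries in each. Normal RGCs were untreated, aging RGCs were treated with D-galactose to bring on an aged state, and aging RGCs + USCs medium received D-galactose and then medium conditioned by human urine-derived stem cells (USCs), with the USCs removed. The last group is called medium-treated below, and all of its libraries carry the D-galactose treatment as well. The RGCs of the study were purchased cells grown in serum and passaged with trypsin. The libraries of a group came from separate wells per the study's methods. Nothing there says whether the wells held separately grown cultures, so the p-values measure the spread between wells.

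The BCL2 family decides whether the outer mitochondrial membrane is opened in apoptosis. Anti-apoptotic members such as BCL2, BCL-XL (the main product of Bcl2l1) and MCL1 hold the effectors BAX and BAK1 in check, and BH3-only members such as BAD, PUMA (from Bbc3), NOXA (from Pmaip1), BIM (from Bcl2l11) and BID either neutralise the anti-apoptotic members or activate the effectors. Once BAX or BAK1 forms pores, cytochrome c leaves the mitochondria and caspases are activated. In RGCs injured at the axon, Bax is well known as the gene whose loss keeps the cell bodies alive. Much of this control acts on proteins and their binding, which RNA sequencing does not measure.

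Bcl2 was the member with the largest change, so the 250 bases before its transcription start are shown, from the RefSeq annotation of GRCm38.p6. The windows of Bax and Bcl2l11 are shown beside it because they hold a match to a motif of a factor known to act on apoptosis genes, and they were chosen after the matches were seen. Capitals mark the GC box GGGCGG on either strand in the Bcl2 window and the FOXO motif GTAAACA in the Bcl2l11 window. In the Bax window they mark a 10-base p53 unit. A full p53 element repeats this unit and was not searched for. Each window is read 5′ to 3′ on the strand of its gene. The Bcl2 window is chr1:106714291-106714540 on the minus strand, the Bax window chr7:45466899-45467148 on the minus strand, and the Bcl2l11 window chr2:128125788-128126037 on the plus strand.
Bcl2: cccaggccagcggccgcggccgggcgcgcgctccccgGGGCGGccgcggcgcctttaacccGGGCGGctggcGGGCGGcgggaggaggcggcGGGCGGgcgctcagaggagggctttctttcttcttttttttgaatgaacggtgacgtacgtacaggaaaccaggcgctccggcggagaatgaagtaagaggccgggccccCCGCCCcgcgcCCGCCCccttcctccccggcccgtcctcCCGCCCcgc
Bax: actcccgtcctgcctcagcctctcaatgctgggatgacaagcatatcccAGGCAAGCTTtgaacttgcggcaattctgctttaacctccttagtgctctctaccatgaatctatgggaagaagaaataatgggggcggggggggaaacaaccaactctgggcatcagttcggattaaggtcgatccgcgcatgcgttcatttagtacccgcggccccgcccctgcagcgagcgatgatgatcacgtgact
Bcl2l11: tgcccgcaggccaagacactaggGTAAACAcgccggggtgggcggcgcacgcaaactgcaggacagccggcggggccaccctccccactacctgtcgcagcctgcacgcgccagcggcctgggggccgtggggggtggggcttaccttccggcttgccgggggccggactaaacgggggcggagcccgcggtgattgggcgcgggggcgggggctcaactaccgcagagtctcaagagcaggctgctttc

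The Bcl2 window was 74.8% G or C, against a median of 52.4% over 32851 windows of this length, and held 7 GC boxes between 9 and 213 bases before the start. At least 1 GC box, on either strand, was found in 32.7% of all windows and in windows of 7 members, namely Bad, Bax, Bbc3, Bcl2, Bcl2l11, Bid and Mcl1. A window of Bbc3 also held 7 of them at 81.6% G or C, so neither value sets Bcl2 apart. The Bax window held the 10-base p53 unit, which is only part of a full element, 201 bases before the start. The unit reads as a match on both strands at the same place and was present in 7.13% of windows. The FOXO motif, 227 bases before the start in the Bcl2l11 window, was present in 3.17% of all windows. Bcl2l11 has a further start with no such match, and Bbc3 has a window with a FOXO match of its own. Of the 10 members, all but Pmaip1 had a window, 15 windows in all. The STAT motif TTCNNNGAA, found in 7.02% of all windows, the ATF4 and CHOP motif TGATGNAA, found in 3.45%, and the cyclic AMP response element TGACGTCA, found in 1.55%, were in no window of the 9 members searched. Pmaip1 had no window and was not searched. The motifs did not overlap one another in the 3 windows shown. A match is a run of letters and not a binding site, and the GC box was added to the search after the values were seen.

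The libraries held between 18189616 and 22342288 expected counts, which estimate the number of reads per gene, and all 10 members were among the 12145 genes that passed the low-count filter and were tested. Between 64 and 6946 counts stood behind each value of a member. Levels across libraries are given as CPM, the usual scale relative to the library total, here adjusted by TMM factors of 0.956 to 1.034, and levels between genes as FPKM, which also divides by transcript length. Most defining markers of the labelled cell type were low or absent. Of 17 RGC markers only Rbpms, Isl1, Nefl, Map2 and Tubb3 reached a mean of 1 CPM in each group, and Pou4f2, Pou4f3, Atoh7, Rbfox3 and Stmn2 were at 0 in all 9 libraries, so the results are described for these cultures. The 17 markers summed to between 160.1 and 171 CPM in normal RGCs, between 116 and 120.4 CPM in aging RGCs and between 107 and 117 CPM with the medium. This sum covers opposite changes, since Tubb3 had means of 4.46, 2.59 and 21.2 CPM and Nefl of 63.6, 38.4 and 17.3 CPM in the same order.

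Markers of other cell types and of dividing cells moved with the groups too. The summed level of 12 macrophage markers lay between 60.7 and 71.4 CPM in normal and between 45.0 and 52.3 CPM in aging RGCs. With the medium it lay between 31.2 and 56.5 CPM. Cd68, the largest of these markers, had means of 38.6, 41.5 and 31.3 CPM in the order normal, aging and medium-treated. Lyz2 had means of 15.3, 3.16 and 5.22 CPM. Of the 9 tested, 7 were called lower in aging than in normal RGCs, and Cd68 was not called. C1qa, C1qb, C1qc and Aif1 were at 0 in all aging libraries, but their means in normal RGCs were already at most 0.694 CPM. The 9 mesenchymal markers summed to 473 to 560 CPM, 433 to 444 CPM and 262 to 266 CPM in the same order. Col3a1 took most of this sum, with means of 447, 389 and 235 CPM. The 9 markers of dividing cells summed to between 2807 and 3035 CPM in normal RGCs, between 3715 and 3829 CPM in aging RGCs and between 3958 and 4056 CPM with the medium, and all 9 were called higher in both treated groups than in normal RGCs. The 10 epithelial markers summed to between 1050 and 1145 CPM, 1088 and 1114 CPM, and 1254 and 1305 CPM. Their sum covers opposite changes too. Krt8 had means of 410.0, 559.8 and 714 CPM, Krt18 of 320.5, 252.1 and 281.2 CPM and Krt19 of 364.7, 274.4 and 258.1 CPM. The 8 glial markers summed to between 1785 and 1879 CPM, 2084 and 2152 CPM, and 2041 and 2181 CPM, of which Vim, also expressed by mesenchymal cells, took means of 1695, 2006 and 1970 CPM. Krt5 and Aqp4 were at 0 in all libraries. The 11 photoreceptor markers summed to at most 3.13 CPM. The part of these markers in the results on the BCL2 family was not tested. In such bulk cultures, fewer cells of a type and less RNA per cell cannot be told apart.

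Per length of transcript, Mcl1 and the effectors Bak1 and Bax were the most abundant members, and Bcl2 was the least abundant in each group. In normal RGCs the mean FPKM was 93.5 ± 4.22 for Mcl1 (SD, n = 3, here and below), 76.9 ± 4.44 for Bak1, 46.1 ± 2.52 for Bax and 24.2 ± 1.72 for Bcl2l1. Lower down came Bad at 17.9 ± 0.252, Bcl2l11 at 14.8 ± 1.45, Bid at 11.8 ± 0.691, Pmaip1 at 6.55 ± 0.851, Bbc3 at 4.08 ± 0.259 and Bcl2 at 1.08 ± 0.106. No neighbours in this order overlapped in their 3 libraries, and the mean of Mcl1 was 86.3 times that of Bcl2.

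**Figure D1:**
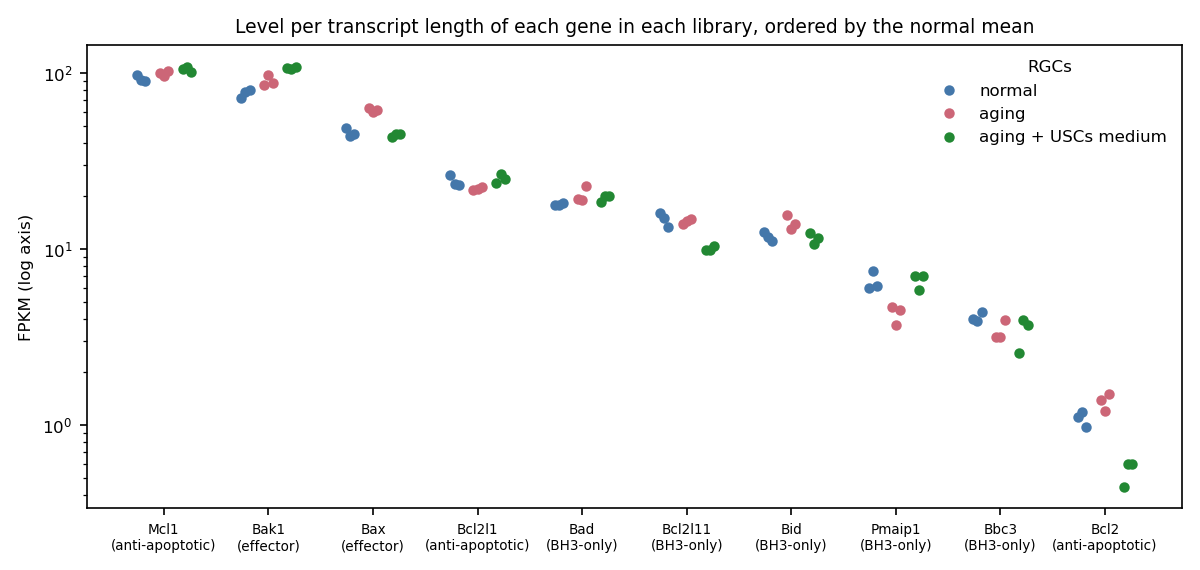
FPKM (log axis) of each BCL2 family gene in each of the 9 libraries (points, coloured by group), ordered by the mean of normal RGCs. Mcl1 and Bak1 lie near 100 FPKM, and the Bcl2 points of medium-treated RGCs, 0.44 to 0.60 FPKM, lie below all others.

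The order shifted a little with treatment. In aging RGCs it was as in normal RGCs by the means, but the ranges of Mcl1 and Bak1, of Bcl2l1 and Bad, of Bcl2l11 and Bid, and of Pmaip1 and Bbc3 overlapped, so these neighbours did not differ beyond their spread. In medium-treated RGCs Bak1, at 106.8 ± 1.37 FPKM, stood beside Mcl1, at 105.7 ± 3.50 FPKM, with overlapping ranges. Bid, at 11.5 ± 0.767 FPKM, was then above Bcl2l11, at 10.03 ± 0.372 FPKM, and their ranges did not overlap. Bcl2 had a mean of 0.547 ± 0.0924 FPKM in this group.

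Many genes passed the test in this dataset, and the members' counts are read against that background. Genes were called at an adjusted p under 0.05 by the quasi-likelihood test of edgeR over all genes tested, and differentially expressed genes (DEGs) differed by 2-fold or more as well, a log2 fold change beyond 1 in either direction. Between aging and normal RGCs, 6 of 10 members were called, against 46.5% of all genes tested. Bcl2, Bax, Bak1, Bad and Bid were the 5 higher ones, against 23.6% of all genes, and Pmaip1 was the 1 lower one, against 23.0%. None of the 10 was a DEG in edgeR, against 2.65% of all genes, the largest absolute log2 fold change being that of Pmaip1 at -0.62. The median log2 fold change was 0.14 over the members and 0.0018 over all genes tested. The share of members called in either direction lies near the background and is read as no result about the family.

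In medium-treated against aging RGCs, 8 of 10 members were called, against 53.1% of all genes. Pmaip1, Bak1, Bcl2l1 and Mcl1 were higher, 4 members against 27.1% of all genes, and Bcl2, Bax, Bcl2l11 and Bid were lower, 4 members against 26.0%. Bcl2 alone among the members was a DEG, against 5.44% of all genes. In medium-treated against normal RGCs, 5 of 10 members were called, against 60.5% of all genes. Bak1, Bcl2l1 and Mcl1 were the 3 higher ones, against 30.6%, and Bcl2 and Bcl2l11 the 2 lower ones, against 29.9%. None was a DEG in that comparison, against 6.72% of all genes, with Bcl2 nearest at -0.90. The median log2 fold changes of the members were 0.0039 and 0.075 in these comparisons, beside -0.0067 and -0.013 over all genes. The 3 comparisons share their libraries by pairs, so a gene high in the aging libraries alone comes out higher in the first and lower in the second.

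**Figure D2:**
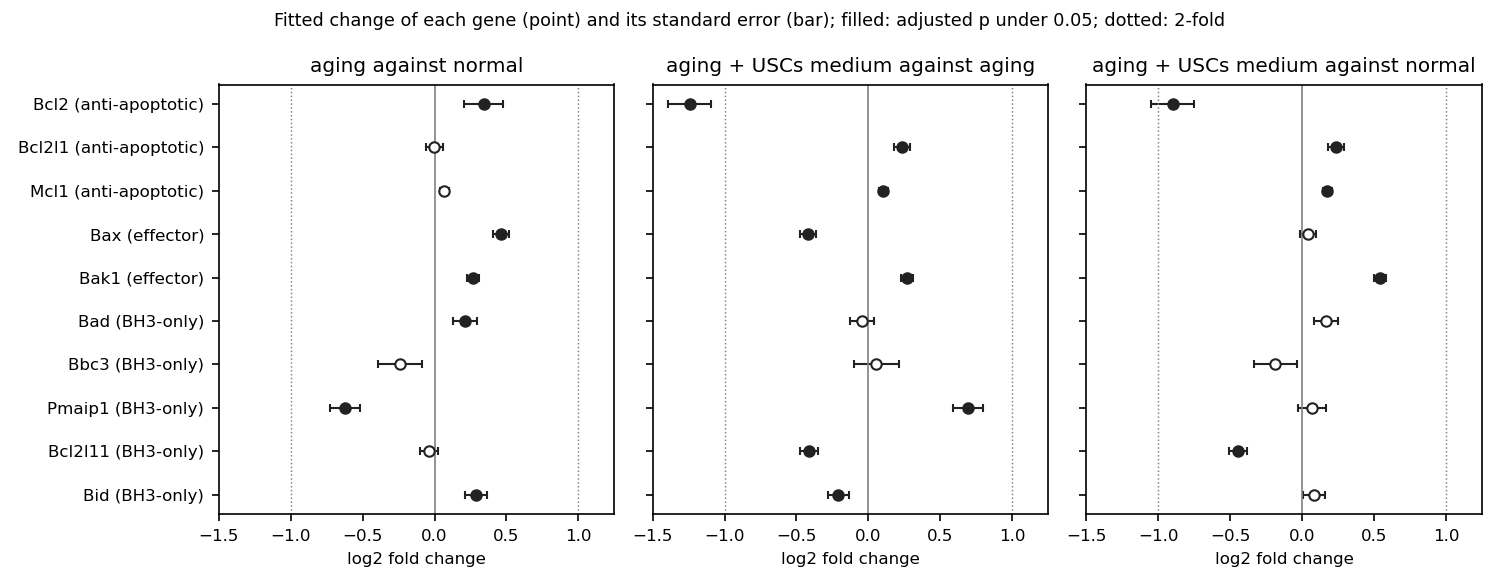
Log2 fold change (x axis) of each BCL2 family gene in the 3 comparisons, with bars for 1 standard error; filled points have an adjusted p under 0.05, and dotted lines mark a 2-fold change. Bcl2 at -1.24 in medium-treated against aging RGCs is the only point beyond a dotted line.

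Among the anti-apoptotic members, Bcl2 fell and the other two rose with the medium. Bcl2, the founding member, was at 7.62, 8.24 and 6.66 CPM in normal RGCs, at 9.68, 8.29 and 10.6 CPM in aging RGCs, and at 3.29, 4.52 and 4.25 CPM in medium-treated RGCs. All medium-treated libraries lay below all other libraries, and the aging libraries lay just above the normal ones, 8.29 against 8.24 CPM at the nearest. Bcl2 was lower in medium-treated than in aging RGCs by a log2 fold change of -1.24 ± 0.15 (SE, here and for each log2 fold change), adjusted p = 5.02e-08, which is 0.423 of the aging level. Against normal RGCs it was lower at -0.90 ± 0.15, adjusted p = 8.10e-06. On the log2(FPKM + 1) scale, which understates changes of low genes, these differences were -0.61 and -0.43 and still passed in limma (adjusted p = 0.000148 and 0.00102).

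The rise of Bcl2 in aging RGCs was less sure. Its log2 fold change against normal RGCs was 0.34 ± 0.13, with adjusted p = 0.0382 in edgeR. It did not pass in 8 of 19 other settings, where the adjusted p reached 0.189, among them DESeq2 (adjusted p = 0.0679). Left out one at a time, normal replicates 1 and 3 and aging replicates 1 and 3 each ended the call, the log2 fold change being 0.26 without normal replicate 3 and 0.26 without aging replicate 3. Bcl2 lies on chromosome 1 from 106538178 to 106714274 (GRCm38, minus strand), and 558 of its 9157 exonic bases are shared with an antisense RNA, D630008O14Rik. Whether the counting used strand is not given in the sources used here.

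Bcl2l1, which encodes BCL-XL, was higher with the medium and much the same in the other groups. It was at 53.2, 48.3 and 49.5 CPM in normal, 49.9, 48.6 and 52.6 CPM in aging, and 57.6, 63.6 and 56.6 CPM in medium-treated RGCs. The medium-treated libraries did not overlap with the others, and the other groups overlapped. The log2 fold change was 0.24 ± 0.056 against aging RGCs (adjusted p = 0.000818) and 0.23 ± 0.056 against normal RGCs (adjusted p = 0.000619, edgeR). On the log2(FPKM + 1) scale the latter was 0.057 and did not pass in limma (adjusted p = 0.441). Aging and normal RGCs differed by -0.0010 ± 0.057, adjusted p = 0.991.

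Mcl1, a short-lived survival protein, differed by little between the groups, and its call against normal RGCs held in medium-treated RGCs under all 19 other settings. Its levels were 297, 303 and 303 CPM in normal, 309.5, 319.6 and 318 CPM in aging, and 339, 345 and 335 CPM in medium-treated RGCs, with no overlap between any of the groups. The log2 fold change was 0.10 ± 0.031 in medium-treated against aging RGCs (adjusted p = 0.00624) and 0.17 ± 0.031 against normal RGCs (adjusted p = 2.56e-05). In aging against normal RGCs it was 0.069 ± 0.031 and did not pass (adjusted p = 0.0758, edgeR). The difference between medium-treated and aging RGCs was 0.026 without TMM factors (adjusted p = 0.489) and did not pass on either FPKM scale in limma. Mcl1 made up 78.7% ± 0.396 of the summed FPKM of the 3 anti-apoptotic members in normal, 81.0% ± 0.369 in aging and 80.4% ± 0.850 in medium-treated RGCs. Bcl2 made up 0.913% ± 0.0932, 1.100% ± 0.0937 and 0.416% ± 0.0679.

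**Figure D3:**
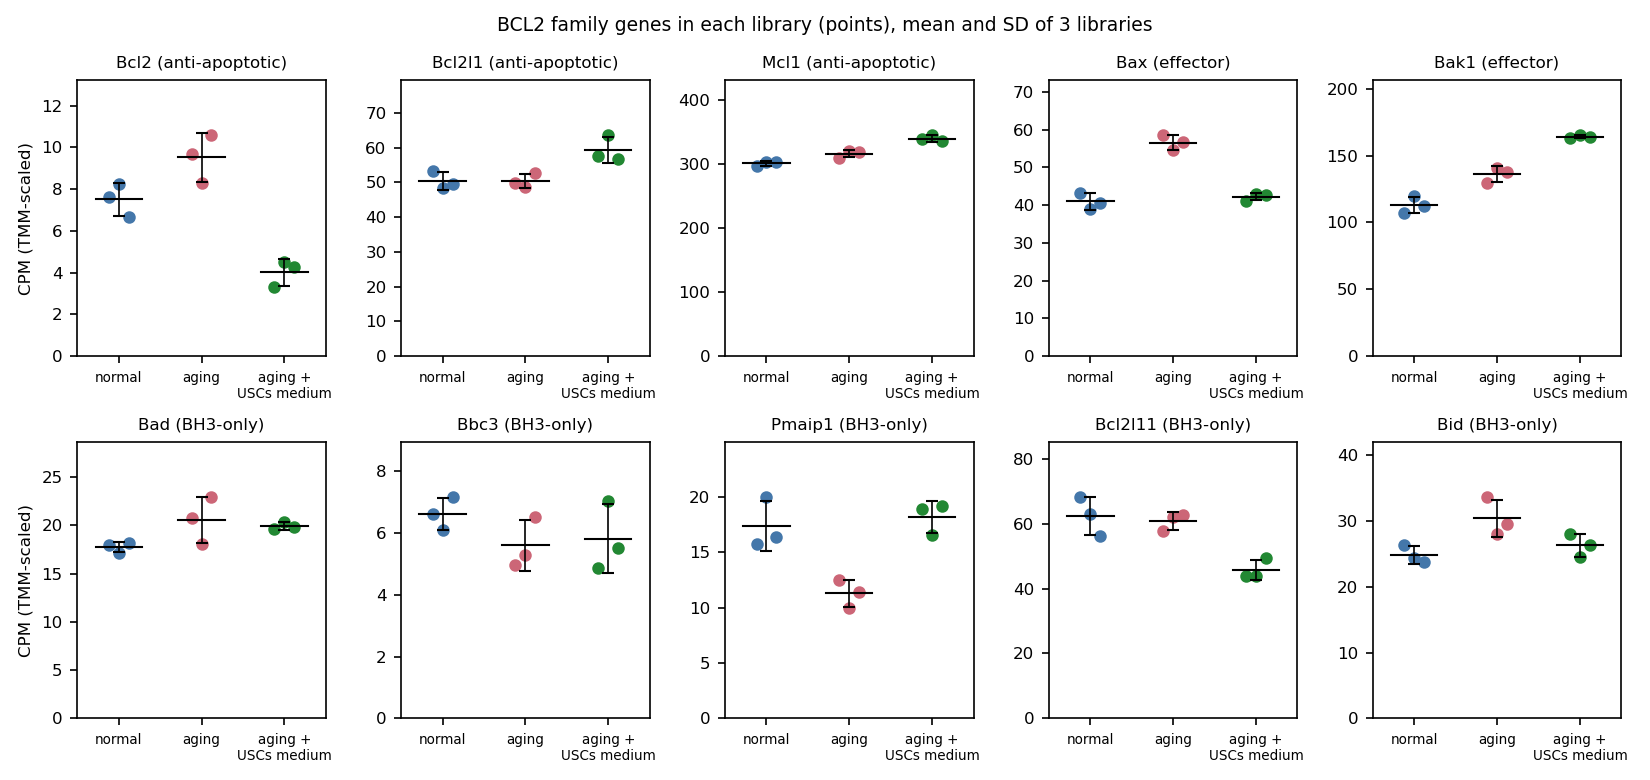
CPM of each of the 10 BCL2 family genes (y axes, starting at 0) in normal, aging and medium-treated RGCs; points are libraries, and lines with bars are the mean and SD of 3 libraries. Bax stands out in the aging group at 54.5 to 58.5 CPM, Pmaip1 is lowest there at 9.99 to 12.5 CPM, and Bak1 steps up from group to group.

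The effectors BAX and BAK1, which form the pores, did not move together. Bax was at 43.3, 39.0 and 40.6 CPM in normal RGCs, at 58.5, 54.5 and 56.6 CPM in aging RGCs, and at 41.1, 42.9 and 42.8 CPM in medium-treated RGCs. The aging libraries stood above all others, while normal and medium-treated libraries overlapped. Bax was higher in aging than in normal RGCs at 0.46 ± 0.055 (adjusted p = 6.23e-08, 1.38-fold) and lower in medium-treated than in aging RGCs at -0.42 ± 0.055 (adjusted p = 2.53e-07). Medium-treated and normal RGCs differed by 0.043 ± 0.056 (adjusted p = 0.521). The direction of this small difference turned without TMM factors, at -0.057, and on the FPKM scales. Bax, on chromosome 7 from 45461697 to 45466898, shares 192 exonic bases with Gm45808, which had 0 counts in each library.

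Bak1 rose in both steps. It was at 107, 119 and 113 CPM in normal, 129.8, 141 and 138 CPM in aging, and 163, 165 and 164 CPM in medium-treated RGCs. No groups overlapped. The log2 fold change was 0.27 ± 0.042 in aging against normal RGCs (adjusted p = 5.74e-06), 0.27 ± 0.041 in medium-treated against aging RGCs (adjusted p = 2.95e-06) and 0.54 ± 0.041 in medium-treated against normal RGCs (adjusted p = 6.32e-12). All 3 calls held in each of the 19 other settings. Ggnbp1, which shares 614 exonic bases with Bak1 on the opposite strand, was between 0.149 and 1.18 CPM.

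The BH3-only members went in different directions. Pmaip1, which encodes NOXA, a partner of MCL1, was at 15.8, 19.97 and 16.4 CPM in normal RGCs, at 12.5, 9.99 and 11.4 CPM in aging RGCs, and at 18.9, 16.6 and 19.2 CPM in medium-treated RGCs. The aging libraries were the lowest, and normal and medium-treated libraries overlapped. Pmaip1 was lower in aging than in normal RGCs at -0.62 ± 0.10 (adjusted p = 1.34e-05) and higher in medium-treated than in aging RGCs at 0.69 ± 0.10 (adjusted p = 2.13e-06), a 1.61-fold difference. Medium-treated and normal RGCs differed by 0.069 ± 0.096 (adjusted p = 0.550), and this difference was -0.031 without TMM factors.

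Bcl2l11, which encodes BIM, a strong activator of apoptosis in neurons deprived of growth factors, was lower in medium-treated RGCs than in both other groups. It was at 68.1, 62.9 and 56.2 CPM in normal, 57.7, 62.1 and 62.7 CPM in aging, and 44.0, 44.0 and 49.4 CPM in medium-treated RGCs. The medium-treated libraries lay below all others. The log2 fold change was -0.41 ± 0.063 against aging RGCs (adjusted p = 3.33e-06) and -0.45 ± 0.062 against normal RGCs (adjusted p = 4.62e-07). Aging and normal RGCs differed by -0.038 ± 0.061 (adjusted p = 0.638), a difference that was 0.028 without normal replicate 1.

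Bid, which links death receptors to mitochondria once caspase-8 cuts its protein, was at 26.4, 24.4 and 23.7 CPM in normal, 33.6, 28.1 and 29.6 CPM in aging, and 28.1, 24.6 and 26.3 CPM in medium-treated RGCs. The aging libraries lay above the normal ones, and the lowest of them fell just within the medium-treated range. Bid was higher in aging than in normal RGCs at 0.29 ± 0.075 (adjusted p = 0.00220). It was lower in medium-treated than in aging RGCs at -0.21 ± 0.075 (adjusted p = 0.0210), and this call was lost without aging replicate 1 (-0.13, adjusted p = 0.182), without medium-treated replicate 2 (-0.16, adjusted p = 0.125) and without medium-treated replicate 3 (-0.20, adjusted p = 0.0531). Medium-treated and normal RGCs differed by 0.081 ± 0.076 (adjusted p = 0.368). Bid shares 628 exonic bases with Bcl2l13, a further family member on the opposite strand, which ranged from 66.0 to 75.6 CPM and was not called in any of the 3 comparisons.

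Bad and Bbc3 showed the least. Bad, whose protein is held inactive by survival kinases, was at 17.9, 17.2 and 18.2 CPM in normal, 20.7, 18.1 and 22.9 CPM in aging, and 19.6, 20.3 and 19.8 CPM in medium-treated RGCs. One aging library fell within the normal range. The log2 fold change in aging against normal RGCs was 0.21 ± 0.083, with adjusted p = 0.0372, but it did not pass in 10 of 19 other settings, where the adjusted p reached 0.270. It was 0.13 without aging replicate 3 and 0.29 at the highest. Gpr137, which shares 524 exonic bases with Bad on the opposite strand, was called higher in the same comparison at 0.28 (adjusted p = 0.0178), and Bad carried fractional counts in some libraries. Their part in the value of Bad was not tested.

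Against aging RGCs, Bad in medium-treated RGCs differed by -0.046 ± 0.083 (adjusted p = 0.665), and against normal RGCs by 0.17 ± 0.083 (adjusted p = 0.0860). Bbc3, which encodes PUMA, a p53 target, was at 6.63, 6.11 and 7.15 CPM in normal, 4.98, 5.30 and 6.53 CPM in aging, and 4.88, 7.05 and 5.53 CPM in medium-treated RGCs. All groups overlapped. Its log2 fold changes were -0.24 ± 0.15 in aging against normal (adjusted p = 0.207), 0.054 ± 0.16 in medium-treated against aging (adjusted p = 0.797) and -0.19 ± 0.15 in medium-treated against normal RGCs (adjusted p = 0.297). With 92 to 153 counts per library, its standard errors were the widest of the 10 members.

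Ratios between members were taken per library from FPKM and are given without a test. The ratio of Bax to Bcl2 was 44.4, 37.3 and 46.8 in normal RGCs, 46.0, 50.5 and 41.3 in aging RGCs, and 98.5, 74.8 and 75.5 in medium-treated RGCs. Normal and aging RGCs overlapped, and the medium-treated libraries lay above both, with means of 42.8 ± 4.95, 46.0 ± 4.57 and 82.9 ± 13.5. Mean FPKM in the same order was 46.1, 61.9 and 44.5 for Bax and 1.08, 1.36 and 0.547 for Bcl2. Bax was thus not higher with the medium, and the higher ratio came with the fall of Bcl2, the least abundant member. The ratio of Bak1 to Bax was 1.68 ± 0.177, 1.47 ± 0.142 and 2.40 ± 0.0556 in the same order, and the medium-treated libraries again lay above the rest.

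The summed FPKM of Bax and Bak1 was 122.9 ± 2.55 in normal, 153 ± 4.57 in aging and 151 ± 1.94 in medium-treated RGCs, and the libraries of the last groups overlapped in this sum although Bax was lower and Bak1 higher with the medium. The 3 anti-apoptotic members summed to 118.7 ± 5.96, 123 ± 3.91 and 131 ± 4.64 FPKM, and the 5 BH3-only members to 55.1 ± 1.77, 56.6 ± 3.42 and 51.1 ± 1.53 FPKM. The ratio of BH3-only to anti-apoptotic members was 0.465 ± 0.0172 in normal, 0.460 ± 0.0132 in aging and 0.390 ± 0.0228 in medium-treated RGCs, with the last group below the others. The ratio of effectors to anti-apoptotic members was 1.04 ± 0.0688, 1.24 ± 0.0728 and 1.15 ± 0.0499. In that ratio the aging libraries overlapped with the medium-treated ones, and both lay above the normal ones.

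**Figure D4:**
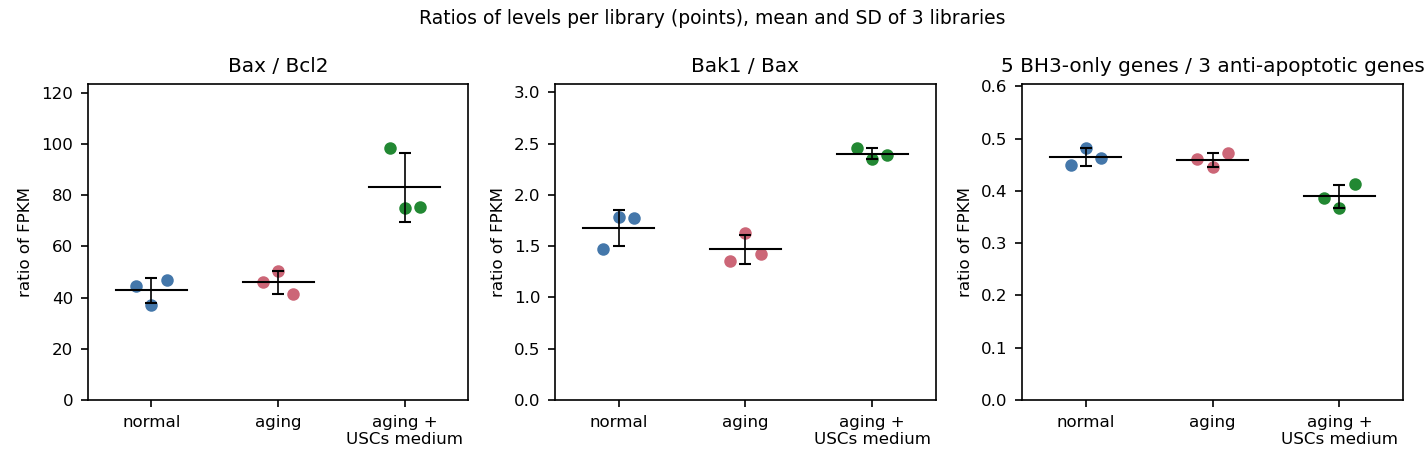
Ratios of FPKM per library (y axes, starting at 0) for Bax to Bcl2, Bak1 to Bax, and the 5 BH3-only to the 3 anti-apoptotic genes; points are libraries, and lines with bars are the mean and SD. The medium-treated libraries lie above the rest in the first and second ratios and below in the last.

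Beyond the 10 members, 90 further genes of the family and of the pathway were listed, of which 80 were tested. Aging against normal RGCs gave 41 calls, 26 higher and 15 lower, which is 51.3% of the 80 against 46.5% of all genes. In medium-treated against aging RGCs 48 were called, 29 higher and 19 lower, 60.0% against 53.1% of all genes. In medium-treated against normal RGCs 49 were called, 30 higher and 19 lower, 61.3% against 60.5% of all genes. These shares lie near the background. Without TMM factors the splits of the last comparisons were 21 higher and 26 lower of 47, and 22 higher and 26 lower of 48. On log2(FPKM + 1) in limma they were 20 and 22 of 42 in both, and 18 and 15 of 33 in aging against normal RGCs. The balance of higher and lower calls in the last comparisons thus turned with the scaling. Without TMM factors, the median of all genes tested moved to -0.085 in the second comparison and -0.11 in the third.

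Of 18 other BCL2 family genes 11 were tested, while Bcl2a1a, Bcl2a1b, Bcl2a1d, Bcl2l10, Bik, Bnipl and Hrk were too low. Against normal RGCs, aging RGCs had 4 higher and 1 lower, in medium-treated against aging RGCs 1 was higher and 5 lower, and in medium-treated against normal RGCs 2 were higher and 3 lower. The shares called were 45.5%, 54.5% and 45.5%, near or below the 46.5%, 53.1% and 60.5% of all genes, and the median log2 fold changes were 0.11, -0.13 and 0.020. Bok, a further pore-forming member, was at 12.3, 12.5 and 13.4 CPM in normal, 23.5, 22.2 and 23.5 CPM in aging, and 15.8, 15.8 and 12.1 CPM in medium-treated RGCs. It was higher in aging RGCs at 0.86 ± 0.092 (adjusted p = 9.96e-09) and lower with the medium than in aging RGCs at -0.66 ± 0.091 (adjusted p = 5.58e-07), as Bax was. Bmf, a BH3-only gene whose product responds to loss of anchorage, was at 30.1, 24.6 and 30.5 CPM in normal, 17.9, 15.7 and 17.9 CPM in aging, and 13.4, 15.7 and 17.6 CPM in medium-treated RGCs. Bmf was lower than in normal RGCs in both treated groups, at -0.73 ± 0.093 in aging (adjusted p = 2.54e-07) and -0.87 ± 0.094 in medium-treated RGCs (adjusted p = 5.24e-09).

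The mitophagy receptors Bnip3 and Bnip3l were higher in aging RGCs, at 0.19 ± 0.043 and 0.14 ± 0.035, and lower with the medium than in aging RGCs, at -0.18 ± 0.043 and -0.13 ± 0.035. Bcl2l2, which encodes the anti-apoptotic BCL-W, was lower with the medium than in aging RGCs at -0.18 ± 0.064 (adjusted p = 0.0217) and than in normal RGCs at -0.28 ± 0.063 (adjusted p = 0.000319). Bnip2 was higher in medium-treated than in normal RGCs at 0.22 ± 0.040. Bcl2l14 had only 14, 16 and 5 counts in normal, 18, 27 and 14 in aging, and 3, 1 and 1 in medium-treated RGCs, and Bcl2l15 had 2, 6 and 5, then 4.66, 15 and 10.3, then 21.3, 15.4 and 24.0. Bcl2l14 passed as lower in medium-treated RGCs against both other groups (adjusted p = 3.16e-05 and 0.00203), and Bcl2l15 as higher against normal RGCs (adjusted p = 0.000338). At such counts the fitted fold changes depend on the prior count of the fit and are left out.

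Downstream of the BCL2 family, the list of the apoptosome and caspases had 3 genes higher and 1 lower of 9 in aging RGCs, 4 and 2 in medium-treated against aging RGCs, and 4 and 2 in medium-treated against normal RGCs. That is 44.4%, 66.7% and 66.7% of them, beside 46.5%, 53.1% and 60.5% of all genes, with median log2 fold changes of -0.010, 0.094 and 0.092. Casp12, an endoplasmic reticulum caspase, was at 12.9, 10.9 and 15.5 CPM in normal, 19.1, 16.6 and 19.9 CPM in aging, and 39.2, 41.4 and 46.1 CPM in medium-treated RGCs. It was higher in aging than in normal RGCs at 0.50 ± 0.10 (adjusted p = 0.000170) and higher in medium-treated than in aging RGCs at 1.19 ± 0.090 (adjusted p = 7.91e-12). Cycs, the gene for cytochrome c, stepped up at 0.25 ± 0.044 and then 0.47 ± 0.043, to 225 to 231 CPM. The executioner Casp6 was higher with the medium than in aging RGCs at 0.48 ± 0.085. Casp9, the apoptosome caspase, was lower in aging RGCs at -0.22 ± 0.077 (adjusted p = 0.0212), and Casp8 was higher in medium-treated than in normal RGCs at 0.35 ± 0.056.

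Of 10 genes of the mitochondrial pore and release, 6 were higher and 1 lower in aging RGCs, 6 were higher in medium-treated against aging RGCs, and 9 were higher and 1 lower in medium-treated against normal RGCs. The shares were 70.0%, 60.0% and 100%, beside 46.5%, 53.1% and 60.5% of all genes, and the median log2 fold changes 0.12, 0.17 and 0.30. Endog, a mitochondrial nuclease, was a DEG in aging against normal RGCs at 1.05 ± 0.20 (adjusted p = 6.04e-05), from 1.84 to 2.82 CPM up to 4.10 to 5.51 CPM. Ppif, the cyclophilin D of the permeability transition pore, rose at 0.27 ± 0.074 and then at 0.25 ± 0.072, and Mtch2, the membrane receptor of truncated BID, at 0.27 ± 0.042 and then at 0.23 ± 0.041. Vdac3, an outer membrane channel, and Aifm1, the gene for apoptosis-inducing factor, were higher with the medium than in aging RGCs at 0.32 ± 0.036 and 0.26 ± 0.054, and Bag1, whose product binds BCL2, was higher in aging RGCs at 0.18 ± 0.043.

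The inhibitors of apoptosis and their antagonists numbered 11, with 3 higher in aging RGCs, 2 higher and 2 lower in medium-treated against aging RGCs, and 4 higher and 1 lower against normal RGCs. With 27.3%, 36.4% and 45.5% called, the list lay below the 46.5%, 53.1% and 60.5% of all genes, and its median log2 fold changes were 0.11, 0.0065 and 0.045. Birc5, which encodes survivin and is also a mitosis gene, rose at 0.39 ± 0.038 in aging RGCs and at 0.19 ± 0.037 with the medium, beside the markers of dividing cells given above. Xiap, the direct caspase inhibitor, was lower with the medium than in aging RGCs at -0.24 ± 0.044, as was the large inhibitor Birc6 at -0.13 ± 0.032, and Htra2, a mitochondrial antagonist, was higher at 0.37 ± 0.075. Birc6 had been higher in aging RGCs at 0.16 ± 0.032, and Diablo, the gene for the antagonist SMAC, was higher in medium-treated than in normal RGCs at 0.19 ± 0.062.

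Of 8 execution substrates and nucleases, 4 were higher in aging RGCs, 3 higher and 2 lower in medium-treated against aging RGCs, and 5 higher and 1 lower against normal RGCs. Called were 50.0%, 62.5% and 75%, beside 46.5%, 53.1% and 60.5% of all genes, with median log2 fold changes of 0.062, 0.074 and 0.13. Gas2, a cytoskeletal substrate of caspases, was lower with the medium than in aging RGCs at -0.72 ± 0.088 (adjusted p = 7.58e-08) and than in normal RGCs at -0.71 ± 0.087. Parp1, which encodes a DNA repair enzyme cut by caspases, and Acin1, a chromatin condensation gene, were higher in aging RGCs at 0.31 ± 0.039 and 0.22 ± 0.037, as were Pak2 and Lmna at 0.11 ± 0.035 and 0.11 ± 0.030. With the medium, Dffb, a nuclease subunit, was higher than in aging RGCs at 0.47 ± 0.19 (adjusted p = 0.0391), Lmna higher at 0.11 ± 0.030 and Acin1 lower at -0.19 ± 0.037.

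In the death receptor branch 7 of 8 genes were tested, with 1 higher and 2 lower in aging RGCs, 2 higher in medium-treated against aging RGCs, and 1 higher and 2 lower against normal RGCs. The shares of 42.9%, 28.6% and 42.9% lay below the 46.5%, 53.1% and 60.5% of all genes, and the median log2 fold changes were -0.021, 0.20 and 0.054. Tnfrsf1a, the main TNF receptor, was lower in aging RGCs at -0.33 ± 0.039 and higher with the medium than in aging RGCs at 0.21 ± 0.039. Cflar, which encodes the caspase-8 inhibitor FLIP, was lower than in normal RGCs at -0.28 ± 0.051 in aging and -0.36 ± 0.051 in medium-treated RGCs. Ripk1, a kinase below TNF receptors, was higher in aging than in normal RGCs at 0.13 ± 0.043 and higher in medium-treated than in aging RGCs at 0.20 ± 0.043.

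**Figure D5:**
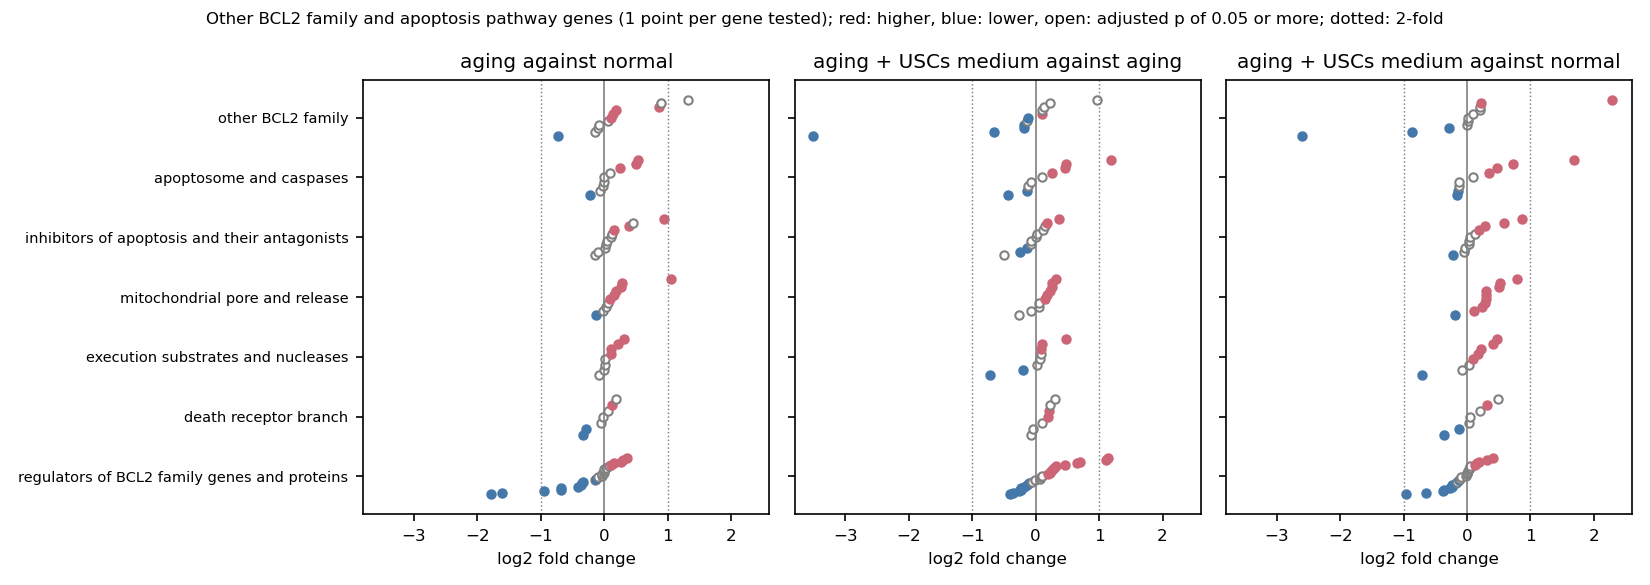
Log2 fold change (x axis) of each tested gene of the 7 other lists in the 3 comparisons; red points were called higher, blue points lower, open points had an adjusted p of 0.05 or more, and dotted lines mark a 2-fold change. Trib3 and Ddit3 among the regulators lie below -1.5 in aging against normal RGCs, and most points lie within the dotted lines.

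Upstream, 24 of 26 regulators of the family were tested. Aging RGCs had 5 higher and 10 lower than normal RGCs, in medium-treated against aging RGCs 11 were higher and 8 lower, and in medium-treated against normal RGCs 5 were higher and 9 lower. Their shares were 62.5%, 79.2% and 58.3%, beside 46.5%, 53.1% and 60.5% of all genes, and their median log2 fold changes -0.071, 0.090 and -0.052. The stress factors ATF4 and CHOP (the product of Ddit3) are known activators of Pmaip1 and Bbc3, and Trib3 is a target of both. Atf4 was at 623, 676 and 629 CPM in normal, 337, 328.5 and 338 CPM in aging, and 524, 570.1 and 542 CPM in medium-treated RGCs. Ddit3 was at 28.4, 33.1 and 29.0 CPM, then 8.44, 11.2 and 9.82 CPM, then 15.4, 16.6 and 14.1 CPM. For both genes the aging libraries were the lowest and the normal ones the highest, with no overlap.

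In aging against normal RGCs the log2 fold changes were -0.94 ± 0.036 for Atf4, -1.62 ± 0.095 for Ddit3 and -1.78 ± 0.057 for Trib3, beside -0.62 ± 0.10 for Pmaip1 and -0.24 ± 0.15 for Bbc3, which did not pass. In medium-treated against aging RGCs they were 0.71 ± 0.036, 0.65 ± 0.10 and 1.13 ± 0.059, beside 0.69 ± 0.10 for Pmaip1 and 0.054 ± 0.16 for Bbc3. Ddit3 was still lower in medium-treated than in normal RGCs at -0.97 ± 0.089, and Trib3 at -0.65 ± 0.052. The adjusted p was at most 6.05e-06 for each of these changes of Atf4, Ddit3 and Trib3 (edgeR). Pmaip1 differed by 0.069 ± 0.096 between medium-treated and normal RGCs and did not pass (adjusted p = 0.550, edgeR). A part of Atf4, Ddit3 and Trib3 in the values of Pmaip1 and Bbc3 was not tested.

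Trp53, whose protein activates Bax, Bbc3 and Pmaip1, was named after its values were seen. It was at 315, 299 and 320.2 CPM in normal, 365, 376 and 384 CPM in aging, and 329, 313 and 319 CPM in medium-treated RGCs. The aging libraries lay above the rest. Trp53 was higher in aging than in normal RGCs at 0.27 ± 0.034 (adjusted p = 2.21e-07) and lower with the medium than in aging RGCs at -0.23 ± 0.034 (adjusted p = 2.35e-06), as Bax was, while Pmaip1 moved the other way and Bbc3 did not pass. Cdkn1a and Mdm2, further p53 targets among the regulators, were named after their values were seen too. Cdkn1a was at -0.0030 ± 0.037 in aging against normal RGCs (adjusted p = 0.955, edgeR). Mdm2 was at 0.076 ± 0.044 (adjusted p = 0.164, edgeR), and neither passed. With the medium, the Cdkn1a libraries lay below all others, and those of Mdm2 overlapped with both other groups. A part of Trp53 in the values of Bax, Pmaip1 and Bbc3 was not tested.

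The PIM kinases phosphorylate BAD. Pim3 was at 88.1, 86.4 and 89.5 CPM in normal, 56.2, 56.0 and 52.0 CPM in aging, and 115, 121 and 116 CPM in medium-treated RGCs, with no overlap. It was lower in aging RGCs at -0.69 ± 0.046 (adjusted p = 8.71e-13) and a DEG with the medium against aging RGCs at 1.10 ± 0.045 (adjusted p = 1.35e-17). Pim1 was lower in aging than in normal RGCs at -0.69 ± 0.11 (adjusted p = 1.18e-05). Pim2, named after its values were seen, went the other way. It was at 9.11 to 9.70 CPM in normal, 10.8 to 12.4 CPM in aging and 8.45 to 8.94 CPM in medium-treated RGCs. The protein of Foxo3 is a known activator of Bcl2l11 and Bbc3. Foxo3 was lower in medium-treated than in normal RGCs at -0.37 ± 0.064 (adjusted p = 1.14e-05). Beside it stood -0.45 ± 0.062 for Bcl2l11 and -0.19 ± 0.15 for Bbc3, which did not pass (adjusted p = 0.297, edgeR). In aging against normal RGCs, Foxo3 was at -0.15 ± 0.063 and did not pass (adjusted p = 0.0521, edgeR). Bcl2l11 did not pass there either, at -0.038 ± 0.061. The medium-treated libraries of Foxo3 lay below the aging ones, as for Bcl2l11. Foxo1, named after its values were seen, was lower in aging than in normal RGCs at -0.41 ± 0.083 (adjusted p = 0.000171, edgeR). Its medium-treated libraries lay above the aging ones, unlike those of Bcl2l11. A part of the PIM kinases, Foxo1 or Foxo3 in the values of the members was not tested.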

How the data were processed

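RNA libraries from 9 wells were sequenced, 3 of each group, and were grouped by their labels. mRNA had been enriched with oligo(dT). For each of 22322 genes the authors deposited an expected count, an estimate of its reads without normalization. They also deposited FPKM values, in which the authors divided by transcript length and library size. The submitters' processing notes name the genome build mm10. The aligner, the counting program and the use of strand are not given here by any source. Library totals were 18189616 to 22342288, and 6.92% to 7.38% of values in a library were not whole and were rounded for testing.

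Genes were tested with edgeR 4.0.16 (R 4.3.3). Of all genes, 12145 passed filterByExpr. A model with group means and TMM factors was fitted over the 9 libraries (6 residual degrees of freedom), and each comparison used its quasi-likelihood F test, with Benjamini-Hochberg adjustment over all genes tested. The standard error given for each log2 fold change is its absolute value divided by the square root of its F statistic. The method was tested on simulated data first. Ratios between genes used FPKM and were not tested. Alternatives were DESeq2 1.42.0, RLE, upper-quartile or no TMM factors, other filters, a fit of just the compared groups, a replicate block, limma 3.58.1 on log2(FPKM + 1) and log2(FPKM + 0.1), stricter thresholds, annotated exon lengths for the ratio, and each library left out in turn. Deviations of same-numbered libraries from their group means correlated at -0.037 to 0.048 across genes, so nothing in the values pairs them. Libraries of a group differed by more than counting noise, with a mean chi-square of 2.21 to 4.94 per gene.

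Of the identifiers, 22267 matched GENCODE M21 on GRCm38, the source of gene coordinates and exon overlaps. Ddit3 had a further entry at 0 in each library, which was not used. Promoter windows are the 250 bases before RefSeq starts. Protein sequences were not used here.

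The members and gene lists were chosen with earlier results of these data known. Named genes were the 10 members and, in each comparison and list, up to 4 called genes with the largest absolute log2 fold change and a mean log2 CPM of at least 1, every DEG of a list, and the 3 genes most like the member with the largest change. A gene that this rule names is not reported here.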

Additional observations from a re-analysis of the deposited data

How the results depend on the processing

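Each log2 fold change of the 10 members was recomputed under 19 other settings. Directions and calls of Bak1 in all 3 comparisons, of Bax, Pmaip1 and Bid in aging against normal RGCs, of Bcl2, Bax, Bcl2l1, Bcl2l11 and Pmaip1 in medium-treated against aging RGCs, and of Bcl2, Bcl2l11 and Mcl1 in medium-treated against normal RGCs held in all 19. The called members numbered 4 to 6, 7 to 8 and 5 with each library left out in turn, and the further genes 37 to 43, 40 to 51 and 44 to 48, in the order aging against normal, medium-treated against aging, and medium-treated against normal. With the replicate block they numbered 6, 8 and 5 members and 40, 48 and 48 further genes. A threshold of an absolute log2 fold change of 1 left 0, 1 and 0 members, against 2.65%, 5.44% and 6.72% of all genes. The counts of the other fits stand without the share of all genes called in the same fit. They are read as no result about the members or the further genes.

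Small differences that did not pass changed direction. For Bbc3 in medium-treated against aging RGCs the value was -0.024 without TMM factors, -0.020 on log2(FPKM + 1), -0.028 on log2(FPKM + 0.1), and -0.11 to 0.18 with libraries left out, being -0.021 without aging replicate 1 and -0.11 without medium-treated replicate 2. In medium-treated against normal RGCs, in the order no TMM factors, log2(FPKM + 1) and log2(FPKM + 0.1), Bax gave -0.057, -0.047 and -0.048, and Bid -0.020, -0.026 and -0.028, while Pmaip1 gave -0.031 without TMM factors. In aging against normal RGCs, Bcl2l1 gave -0.034 to 0.040 with libraries left out (0.040 without normal replicate 1, 0.0034 and 0.022 without aging replicates 1 and 2) and Bcl2l11 -0.11 to 0.028. Bad in medium-treated against aging RGCs gave -0.13 to 0.041, the last without aging replicate 3. The cause was not tested.

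With CPM divided by annotated exon length in place of FPKM, the ratio of Bax to Bcl2 was 32.0 in normal, 34.8 in aging and 62.1 in medium-treated RGCs, since the lengths used differ from those behind FPKM. With 1 library left out the FPKM ratio was 40.8 to 45.6, 43.7 to 48.3 and 75.2 to 87.0. Depth limited Bbc3 and Bcl2 most, with 64 to 209 counts per library.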

Other observations

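The genes whose log2 CPM was most like that of Bcl2 over the 9 libraries were Cntnap4 (Pearson r = 0.982), Pou2f2 (0.977) and Krt76 (0.977). These values describe 9 libraries that fall into 3 groups and share their depth and processing, and were taken as the highest among all genes tested. In medium-treated against aging RGCs the log2 fold changes were -0.61 for Cntnap4, -2.21 for Pou2f2 and -0.93 for Krt76, beside -1.24 for Bcl2.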
